A study of Homo sapiens with 2 samples.

Results

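Toll-like receptors, NOD receptors and cytosolic RNA sensors are the proteins with which a cell recognizes microbial molecules. The 10 genes described here were taken by symbol from the 56638 genes of the tables: TLR1, TLR2, TLR3, TLR4, TLR5, TLR6, NOD2, DDX58, IFIH1 and MYD88. They were measured by RNA-seq in TFK1, an established human cholangiocarcinoma (CCA) cell line, and each gene has 1 row per table. Lentivirus carried a shRNA against MBD2 in one library (MBD2-sh1) and a negative control shRNA in the other (sh-NC), in a pLKO.1 vector with antibiotic selection of the infected cells, and the labels list no other treatment. MBD2 is a reader of DNA methylation that binds methylated CpG dinucleotides. The label TSM1 was read as MBD2-sh1, and knockdown with a second shRNA was not analysed here.

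Toll-like receptors recognize their ligands at the cell surface or in endosomes. TLR2 pairs with TLR1 or TLR6 to bind bacterial lipopeptides, TLR4 recognizes lipopolysaccharide, TLR5 recognizes flagellin and TLR3 binds double-stranded RNA in endosomes. NOD2 detects muramyl dipeptide, a fragment of the bacterial cell wall, in the cytosol. DDX58 (RIG-I) and IFIH1 (MDA5) are cytosolic helicases that detect viral RNA and signal through MAVS, while MYD88 is the adaptor of the listed Toll-like receptors other than TLR3. These routes lead to NF-kB and interferon regulatory factors. Biliary epithelium is exposed to microbial products in bile and is known to express several of these receptors.

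Each condition has 1 library, so no difference has a replicate check and no test between the conditions was possible. The total count was 14728814 for MBD2-sh1 and 14467406 for sh-NC. MBD2 had 365 counts in MBD2-sh1 against 1013 in sh-NC, which left 35.8% of its control level after scaling. Mitochondrial genes took 9.56% and 9.37% of the counts. All 7 biliary epithelial markers were at 1 TPM (transcript abundance corrected for gene length and library size) or more in both libraries, with summed levels of 4814 TPM in MBD2-sh1 against 6014 TPM in sh-NC. Of 11 leukocyte markers, 9 had 3 counts or fewer in both libraries, and CD52, LYZ, CD68, CD163, MS4A1 and CD3E had 0 in both. Their summed level was 2.07 TPM in MBD2-sh1 against 2.21 TPM in sh-NC, most of it from ITGAM with 50 and 38 counts. The span of CD68 overlaps that of SNORA67 (3 and 7 counts) on the same strand in the tables, and reads that match overlapping genes can be left uncounted. Of 5 fibroblast markers, 3 had 3 counts or fewer in both libraries, and the summed levels of the 5 were 0.413 TPM and 0.675 TPM. Among all 56638 genes, 36761 had 3 counts or fewer in both libraries. These numbers of markers alone therefore do not show that a cell type was absent.

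The first question was which of these sensors TFK1 cells express at all. In sh-NC, 7 of the 10 genes reached 1 TPM, namely TLR1, TLR3, TLR5, TLR6, DDX58, IFIH1 and MYD88. In the same library 30.1% of all genes and 63.9% of protein-coding genes reached 1 TPM. In MBD2-sh1 the number was also 7 of 10, with TLR4 in place of TLR5, against 30.0% of all genes and 64.3% of protein-coding genes. TLR4 and TLR5 both lay near this threshold in MBD2-sh1, at 1.08 and 0.984 TPM. TLR2 and NOD2 were below 1 TPM in both libraries. In bulk RNA, fewer expressing cells and less RNA per expressing cell cannot be told apart.

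On the TPM scale, which corrects for gene length, the order in sh-NC began with MYD88 at 28.8 TPM (95% exact Poisson interval 26.4 to 31.3) and TLR6 at 15.8 TPM (14.5 to 17.3). The intervals cover counting error only. TLR1 at 6.43 TPM (5.24 to 7.80), DDX58 at 5.67 TPM (4.79 to 6.67) and IFIH1 at 5.09 TPM (4.15 to 6.18) followed with overlapping intervals, so these neighbors were not separated at this depth. TLR3 at 1.58 TPM (1.18 to 2.07) and TLR5 at 1.45 TPM (0.997 to 2.03) overlapped as well. TLR4 was at 0.593 TPM (0.339 to 0.962), below both. TLR2 rested on 1 count, and NOD2 on none. The median TPM of genes with at least 10 counts was 15.9 in sh-NC, so only MYD88 stood clearly above the typical detected gene.

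In MBD2-sh1 MYD88 was again highest, at 36.0 TPM (33.3 to 38.8). TLR6 at 14.0 TPM (12.7 to 15.3) and DDX58 at 12.2 TPM (10.9 to 13.6) had overlapping intervals in this library, whereas in sh-NC their intervals were far apart. IFIH1 at 6.18 TPM (5.15 to 7.35) and TLR1 at 4.79 TPM (3.79 to 5.98) overlapped. TLR3 at 2.53 TPM (2.03 to 3.12) stood above TLR4 at 1.08 TPM (0.731 to 1.55) and TLR5 at 0.984 TPM (0.624 to 1.48). TLR2 and NOD2 were lowest, at 0.541 TPM (0.288 to 0.926) and 0.312 TPM (0.135 to 0.615). The RNA sensor DDX58 thus moved up in the order of levels, from below TLR1, with overlapping intervals, to above it.

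**Figure D1:**
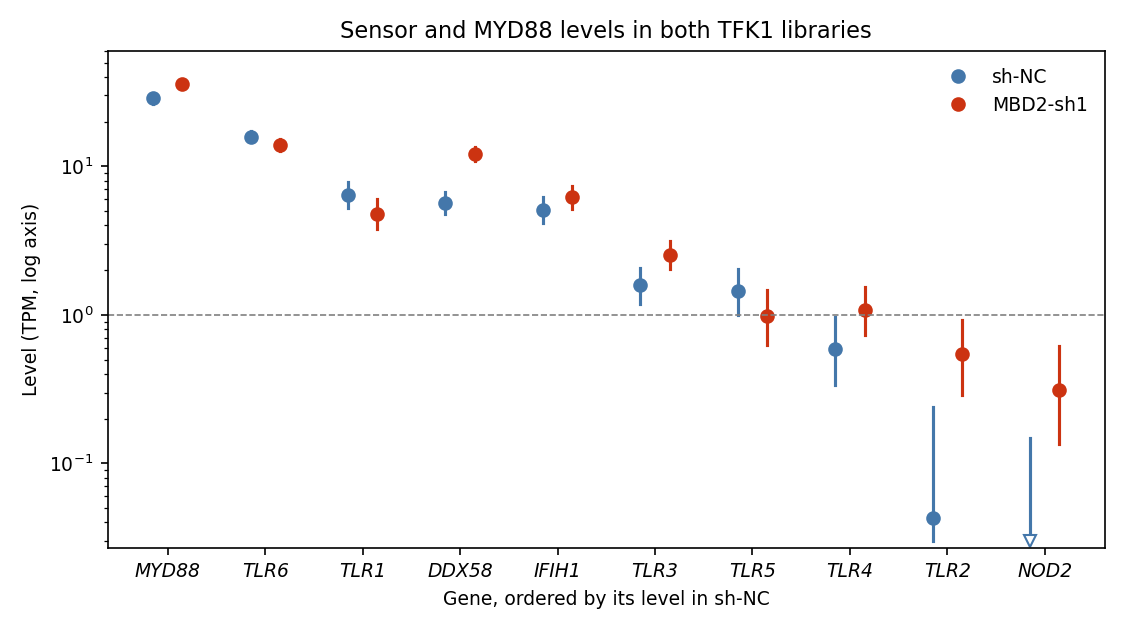
Level of each gene in TPM (logarithmic axis) in sh-NC and MBD2-sh1, 1 library per condition, with 95% Poisson counting intervals, and an open triangle where the library had 0 counts. The interval of TLR2 in sh-NC is cut at the foot of the axis, MYD88 is highest in both libraries and NOD2 has 0 counts in sh-NC.

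Differences are given as log2FC, MBD2-sh1 over sh-NC, of scaled counts, with an exact 95% interval from the split of the reads. Of the 10 genes, 9 had at least 10 counts over both libraries and were compared. NOD2, with 8 counts, was below that minimum. Of these 9, 2 (TLR2 and DDX58) had a log2FC above 1, against 5.48% of the 17545 genes compared in the whole table. None was below -1, against 5.07% of all genes. TLR2, TLR3, DDX58 and MYD88, 4 of 9, had an interval entirely above 0, compared with 19.7% of all genes. None had an interval entirely below 0, compared with 18.4% of all genes. The median log2FC of the 9 genes was 0.35 and that of all genes compared was -0.0082. TLR2 reached the minimum of 10 counts only through MBD2-sh1, the library where it was higher, so the counts over these 9 genes describe this pair of libraries and support nothing further.

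Of the surface receptors, TLR2 showed the largest ratio on the fewest reads. It had 13 counts in MBD2-sh1 against 1 in sh-NC. After scaling, and with a prior of 0.5 counts added in each library, the ratio was 8.96, a log2FC of 3.16. The interval of the log2FC, computed without that prior, was 0.96 to 9.10. The library with the knockdown was the higher, but with 1 count in sh-NC the size of the difference was poorly determined. Among 1025 genes with a like total of counts, 19.3% had a log2FC above 1. On the scale of log2 of TPM plus 1, which shrinks low values, its difference was 0.56.

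The partners of TLR2 had a log2FC below 0. TLR1 had 78 counts in MBD2-sh1 against 102 in sh-NC, a log2FC of -0.39 (-0.84 to 0.04). TLR6 had 470 and 519 counts, a log2FC of -0.15 (-0.34 to 0.03). Both intervals hold 0. The count ratio of TLR6 to TLR1 was 6.03 in MBD2-sh1 against 5.09 in sh-NC, and the interval of the ratio of these ratios, 0.85 to 1.65, held 1. TLR1 (chr4:38790677-38856817, minus strand) and TLR6 (chr4:38823715-38856817, minus strand) overlap in GENCODE 29 on GRCh38 and share 57 exonic bases. Their coding sequences are 77.9% identical, and 149 of the 2287 stretches of 75 bases in TLR1 (6.52%) occur identically in TLR6. Reads that lie wholly within such stretches cannot be assigned to either gene, so the split between TLR1 and TLR6 is uncertain. TLR2 (chr4:153684070-153705702, plus strand) shares no such stretch with either.

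The promoters of TLR2 and TLR6 are shown because MBD2 binds methylated CpG sites and these promoters differ in CpG number, while DNA methylation was not measured here. Each RefSeq promoter (GRCh38.p14) holds 250 bases before and 50 bases after the start of the gene, written 5′ to 3′ along the gene's strand. The region of TLR2 is chr4:153684030-153684329 (plus strand) and that of TLR6 is chr4:38856768-38857067 (minus strand). Capitals mark CpG dinucleotides.
TLR2: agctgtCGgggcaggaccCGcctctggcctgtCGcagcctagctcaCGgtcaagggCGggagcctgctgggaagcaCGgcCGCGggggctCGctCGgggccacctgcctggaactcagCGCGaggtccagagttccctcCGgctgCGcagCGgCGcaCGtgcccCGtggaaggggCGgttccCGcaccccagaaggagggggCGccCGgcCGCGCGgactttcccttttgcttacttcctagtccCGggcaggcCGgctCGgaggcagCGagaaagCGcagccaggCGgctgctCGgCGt
TLR6: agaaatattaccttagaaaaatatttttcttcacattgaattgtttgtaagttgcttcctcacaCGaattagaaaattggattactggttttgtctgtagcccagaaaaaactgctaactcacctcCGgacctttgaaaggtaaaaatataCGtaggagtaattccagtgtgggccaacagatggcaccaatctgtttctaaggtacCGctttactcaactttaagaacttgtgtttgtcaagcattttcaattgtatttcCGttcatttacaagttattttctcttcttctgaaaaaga
The promoter of TLR2 holds 33 CpG dinucleotides and that of TLR6 holds 5. Over the 35116 promoters of the table the median was 14, with quartiles of 4 and 28. Of the other genes, TLR5 and DDX58 had 27, MYD88 25, IFIH1 12, TLR4 8 and TLR3 5, while the pair of NOD2 promoters had 6 and 5.

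TLR4, the receptor for lipopolysaccharide, had 30 counts in MBD2-sh1 against 16 in sh-NC. Its log2FC was 0.88 with an interval of -0.02 to 1.87, which holds 0. TLR4 (chr9:117704175-117724730, plus strand) shares 558 exonic bases with a same-strand gene, AL160272.2. The flagellin receptor TLR5 (chr1:223109406-223143282, minus strand) had 23 counts in MBD2-sh1 against 33 in sh-NC, a log2FC of -0.52 (-1.36 to 0.28). TLR4 and TLR5 thus pointed in opposite directions. The count ratio of TLR4 to TLR5 was 1.30 in MBD2-sh1 against 0.485 in sh-NC, and the ratio of the ratios was 2.66 (1.12 to 6.54). Its interval lies above 1 but is wide.

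TLR3, the endosomal receptor of double-stranded RNA (chr4:186069152-186088069, plus strand), had 87 counts in MBD2-sh1 against 53 in sh-NC. Its log2FC of 0.70 (0.20 to 1.23) was above 0 beyond counting error and below the threshold of 1. Among 667 genes with a like total of counts, 88.8% had a lower log2FC than TLR3 and 4.95% had one above 1. The counting interval does not cover this spread between the libraries. Relative to TLR5 the count ratio of TLR3 was 3.78 in MBD2-sh1 against 1.61 in sh-NC, a ratio of ratios of 2.34 (1.19 to 4.67). TLR5, the receptor with the lowest log2FC, was set against TLR3 and TLR4 with the values known, so these ratios are descriptions. Of the 6 Toll-like receptors, TLR2 and TLR3 had an interval above 0, beside 19.7% of all genes compared. The intervals of TLR1, TLR4, TLR5 and TLR6 held 0. TLR2 reached the minimum number of counts only through MBD2-sh1, where it was higher. The number of receptors with an interval above 0 is therefore a description.

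NOD2 (chr16:50693588-50734041, plus strand) had 8 counts in MBD2-sh1 against 0 in sh-NC. Set against a floor of 3 counts in sh-NC, which equals 0.120 TPM, it was at least 2.65-fold higher in MBD2-sh1, with its 8 counts taken as exact. The counting interval of its log2FC, which includes the error of those counts, began at 0.76. At 0.312 TPM it stayed far below the level of 1 TPM, and an absence of NOD2 transcripts in sh-NC cannot be stated at this depth. The span of NOD2 overlaps in the tables that of RP11-327F22.6 on the same strand, which had 0 counts in both libraries. RIPK2, the kinase through which NOD2 signals, was well expressed, at 78.2 TPM in MBD2-sh1 against 54.7 TPM in sh-NC, with a log2FC of 0.54 (0.41 to 0.68). NOD1, the related receptor, had 112 and 127 counts and a log2FC of -0.19 (-0.57 to 0.19).

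The clearest difference among the 10 genes was that of DDX58 (chr9:32455705-32526324, minus strand). It had 322 counts in MBD2-sh1 against 146 in sh-NC, a fold of 2.19 and a log2FC of 1.13 (0.85 to 1.42). On the scale of log2 of TPM plus 1 it was 0.98, just under the threshold. Among 1042 genes with a like total of counts, 1.82% had a log2FC above 1. IFIH1 (chr2:162267079-162318703, minus strand), which detects longer double-stranded RNA, had 127 and 102 counts and a log2FC of 0.31 (-0.08 to 0.70). The interval of IFIH1 holds 0 and that of DDX58 does not. The count ratio of DDX58 to IFIH1 was 2.54 in MBD2-sh1 against 1.43 in sh-NC, and the ratio of the ratios was 1.77 (1.26 to 2.48). On the TPM scale DDX58 was 1.97 times the level of IFIH1 in MBD2-sh1 and 1.11 times in sh-NC. Their coding sequences are 62.9% identical and share no stretch of 75 bases.

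The promoters of both RNA sensors are shown with their matches to a pair of motifs, since NF-kB and interferon regulatory factors act downstream of these sensors. The motifs were the core of the interferon-stimulated response element (ISRE), which is GAAA, any 2 bases and GAAA, and the kB consensus, both searched on both strands. The region of DDX58 is chr9:32526147-32526446 and that of IFIH1 is chr2:162318635-162318934, both on the minus strand. Capitals mark motif matches.
DDX58: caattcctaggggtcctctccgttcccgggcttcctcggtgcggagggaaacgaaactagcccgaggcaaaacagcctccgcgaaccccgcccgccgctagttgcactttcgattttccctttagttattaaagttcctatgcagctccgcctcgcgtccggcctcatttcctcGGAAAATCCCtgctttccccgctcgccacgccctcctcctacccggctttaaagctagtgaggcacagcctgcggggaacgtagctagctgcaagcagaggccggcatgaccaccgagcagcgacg
IFIH1: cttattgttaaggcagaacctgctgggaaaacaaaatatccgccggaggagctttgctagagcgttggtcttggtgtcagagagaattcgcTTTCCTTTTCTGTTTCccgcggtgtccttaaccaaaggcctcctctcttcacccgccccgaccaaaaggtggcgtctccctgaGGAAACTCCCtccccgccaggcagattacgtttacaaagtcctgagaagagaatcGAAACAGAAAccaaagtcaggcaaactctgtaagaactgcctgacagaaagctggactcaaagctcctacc
Both promoters hold a kB match at position -76, counted from 0 at the start of the gene. IFIH1 also holds 3 matches to the ISRE core, 2 of which overlap. Of all promoters of this length, 11.3% hold a kB match, 3.57% hold the ISRE core and 0.276% hold both. Matches to the ISRE core were also found in TLR3 and MYD88, so 3 of the 10 promoters of these genes hold it and 2 hold a kB match. A match describes letters and not binding.

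MYD88 (chr3:38138478-38143022, plus strand), the shared adaptor, had 682 counts in MBD2-sh1 against 531 in sh-NC. The difference was small, a fold of 1.28, but lay beyond counting error, with a log2FC of 0.35 (0.19 to 0.52). Among 1348 genes with a like total of counts, 92.9% had a lower log2FC than MYD88. The same share for DDX58 was 98.4% of 1042 genes, so MYD88 lay less far out among its like genes. The counting interval does not cover this spread between the libraries. The other adaptors compared had a log2FC between -0.19 and 0.54. MAVS, the adaptor of DDX58 and IFIH1, was at 62.9 TPM in MBD2-sh1 against 56.2 TPM in sh-NC, a log2FC of 0.19 (0.08 to 0.30). TICAM1, the adaptor of TLR3, had 96 and 86 counts, and TIRAP, which bridges TLR2 and TLR4 to MYD88, had 69 and 53, with intervals that hold 0. TICAM2 was below the minimum, and in the tables its span overlaps the readthrough gene TMED7-TICAM2 on the same strand, so its reads may not have been assigned. Of 6 other adaptors, 5 were compared and none was above 1 or below -1, beside 5.48% and 5.07% of all genes. With so few genes, none past either threshold lies near these shares.

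**Figure D2:**
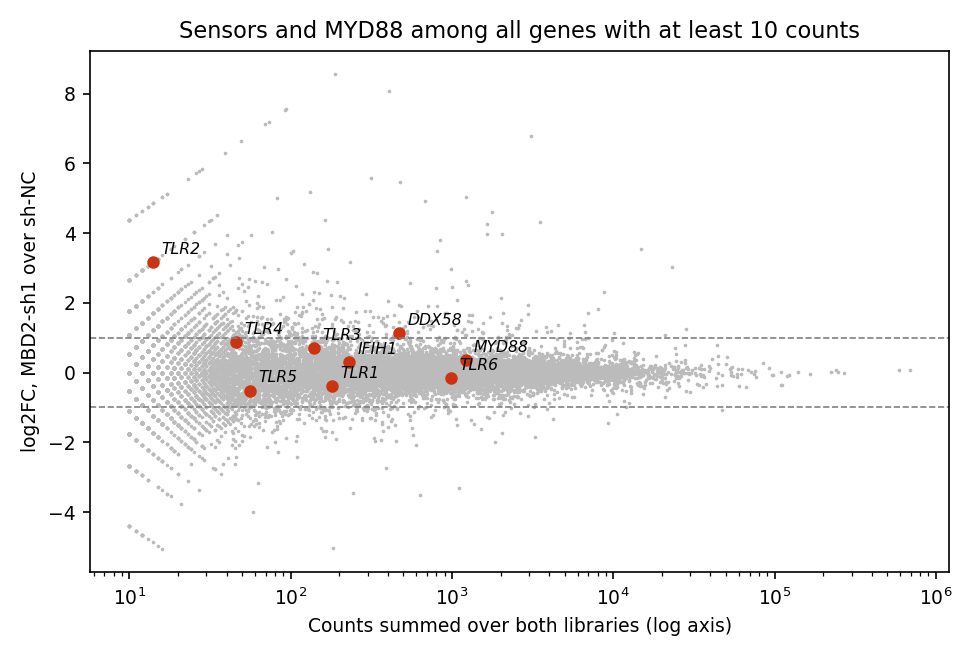
Log2FC, MBD2-sh1 over sh-NC, against the counts summed over both libraries (logarithmic axis) for all 17545 genes compared (grey), with the 9 compared genes in red. DDX58 and TLR2 lie above 1, TLR2 among genes with few counts, where the grey cloud is wide.

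Of 9 co-receptors and chaperones of Toll-like receptors, 5 were compared and 1, LBP, was above 1, beside 5.48% of all genes. CD14, a co-receptor of TLR4, had 152 counts in MBD2-sh1 against 126 in sh-NC, a log2FC of 0.26 (-0.09 to 0.61). LY96 (MD-2), which TLR4 needs to bind lipopolysaccharide, had 3 counts or fewer in both libraries. LBP, which transfers lipopolysaccharide to CD14, had 23 and 9 counts, a log2FC of 1.30 (0.18 to 2.64). UNC93B1, which escorts TLR3 to endosomes, had 802 counts in MBD2-sh1 against 1236 in sh-NC and a log2FC of -0.63 (-0.76 to -0.50), opposite in sign to that of TLR3. The chaperone HSP90B1 had a log2FC of 0.39 (0.36 to 0.42).

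Among 20 kinases and ubiquitin ligases of the pathways, all were compared, 2 were above 1 and none was below -1, beside 5.48% and 5.07% of all genes. Their intervals lay above 0 in 9 and below 0 in 4, beside 19.7% and 18.4% of all genes. The 4 were IRAK4, TAB1, IKBKB and PELI1. IRAK2, a kinase recruited by MYD88, had 880 counts in MBD2-sh1 against 111 in sh-NC, with levels of 44.2 and 5.72 TPM and a log2FC of 2.97 (2.69 to 3.28). Of its relatives, IRAK1 had a log2FC of 0.16 (0.08 to 0.24) and IRAK4 one of -0.22. IRAK3, an inhibitory relative, was below the minimum, with 9 counts in MBD2-sh1 and none in sh-NC, and is given after its values were seen. The ratio of IRAK2 to IRAK1 counts was 7.06 times as large in MBD2-sh1 as in sh-NC (5.74 to 8.75). IKBKE, a kinase that phosphorylates interferon regulatory factors, had 391 and 143 counts and a log2FC of 1.44 (1.16 to 1.73), whereas its relative TBK1 had 0.30 (0.17 to 0.42). TRIM25, a ubiquitin ligase that activates DDX58, had 1978 and 1259 counts and a log2FC of 0.64 (0.54 to 0.75). The log2FC was -0.63 (-0.96 to -0.30) for PELI1, -0.29 (-0.43 to -0.15) for IKBKB and -0.25 (-0.47 to -0.03) for TAB1. The median of the list was 0.13.

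Of 6 transcription factors, all compared, 1 was above 1, beside 5.48% of all genes. It was NFKB1, with 1071 counts in MBD2-sh1, 473 in sh-NC and a log2FC of 1.17 (1.01 to 1.33). IRF1 had a log2FC of 0.80 (0.59 to 1.01) and IRF5 one of -0.60 (-0.96 to -0.26), and the interval of IRF3 held 0. Of 8 feedback inhibitors, 7 were compared and 3 were above 1, beside the same 5.48% of all genes. TNFAIP3 (A20), which removes ubiquitin chains downstream of these receptors, had 1571 and 81 counts and a log2FC of 4.26 (3.95 to 4.61). TNIP1, the partner of TNFAIP3, and NFKBIA, the inhibitor that holds NF-kB in the cytoplasm, had log2FC of 1.38 and 1.36. SIGIRR had 0.42 (0.17 to 0.67), and the interval of TOLLIP held 0.

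Of 14 genes that these sensors are known to induce, 9 were compared, 6 were above 1 and all 9 had an interval above 0, beside 5.48% and 19.7% of all genes. IL6, TNF, CXCL10 and CCL5 reached the minimum only through MBD2-sh1, where they were higher, so these counts are a description. IL8 had 3052 counts in MBD2-sh1 against 27 in sh-NC, a log2FC of 6.79 (6.27 to 7.42). IL6, TNF and CXCL10 had 39, 27 and 11 counts in MBD2-sh1 against 0 in sh-NC, which made them at least 12.9-fold, 8.94-fold and 3.64-fold higher against a floor of 3 counts, with their own counts taken as exact. Their counting intervals of log2FC began at 3.32, 2.76 and 1.32. The antiviral genes differed less, with 0.98 for IFIT1, 0.67 for IFIT2, 0.87 for IFIT3 and 1.16 for ISG15 on the log2FC scale. IFNB1, IFNL1, IFNL2, IFNL3 and IFNA1, the interferon genes of the list, had 3 counts or fewer in both libraries. The median of the list was 3.66, and 1.71 with counts of 3 or fewer raised to 3.

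Over the 7 lists of other pathway genes, 61 of 79 genes were compared, with a median log2FC of 0.28. Of these, 14 were above 1 and 0 below -1, beside 5.48% and 5.07% of all genes. IL6, TNF, CXCL10 and CCL5, among these 14, reached the minimum only through MBD2-sh1, so the count is a description. Without the induced genes, 8 of 52 were above 1 and the median was 0.21. In the list of other sensors, 9 of 16 genes were compared, 1 was above 1 and the median was 0.036. TLR7, TLR8 and TLR9 had 3 counts or fewer in both libraries, and TLR10 had 6 and 10. EIF2AK2 (PKR), a kinase activated by double-stranded RNA, had 3138 and 3042 counts, a log2FC of 0.04 (-0.04 to 0.11), so the abundant RNA sensor of the list differed by far less than DDX58.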

How the data were processed

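RNA-seq libraries of MBD2-sh1 and sh-NC TFK1 cells were used, with 1 library per condition and total counts of 14728814 and 14467406. The authors deposited raw read counts of each gene and a TPM table. The deposited TPM columns were recorded as a score, because values repeated over the identifiers of a symbol bring their sums over 1000000, and were used as TPM after 1 row per symbol was kept. The submitters' processing notes name fastp, HISAT2 2.1.0, featureCounts, DESeq and GRCh38.p13. The strandedness of counting and the annotation are not given in the sources used here. The deposited positions of the 10 genes and MBD2 did not match those of GENCODE 29 on GRCh38, and the reason was not tested. Positions were therefore taken from GENCODE 29 and promoters from RefSeq (GRCh38.p14). The promoters cover 9 of the 10 genes, with DDX58 as RIGI and none for TLR1.

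After 46 lines without a gene were dropped and 1 row per symbol and value was kept, 56638 of 63677 rows remained. Effective library sizes were computed with TMM (edgeR 4.0.16, R 4.3.3). Log2FC was computed with a prior of 0.5 counts where both libraries together held at least 10 counts. Intervals of log2FC are 95% Clopper-Pearson intervals and those of TPM are exact Poisson intervals (scipy 1.17.1). Both cover counting error only. The floor was 3 counts, and genes of like total lie within 0.25 on the log2 scale of the summed counts. No p-value was computed. Scripts were tested on simulated data.

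The genes and gene lists were chosen with earlier results of these data known. All 10 genes and MBD2 were named, and genes of the lists were named with values where they had at least 10 counts. Alternatives were DESeq2 1.42.0 size factors, total counts, upper-quartile factors, log2 of TPM plus 0.1 or 1, prior counts of 0.1 and 2, other filters and TPM thresholds. Raising counts of 3 or fewer to 3 and keeping all rows for library sizes were added after the data were seen.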

Additional observations from a re-analysis of the deposited data

How the results depend on the processing

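No paired analysis was possible because there is 1 library per condition, and no replicate could be left out. All directions of single genes were kept under the alternatives run. With log2 of TPM plus 1, the genes above 1 and below -1 numbered 374 and 340 in place of 961 and 890, 0 of the 10 genes were above 1 in place of 2, TLR2 was at 0.56 and NOD2 at 0.39. DDX58 ranged from 0.98 to 1.14. Without a filter the genes numbered 4523 and 4303. Of the 10 genes, 3 were above 1 in place of 2, and of the other pathway genes 17 in place of 14. Below -1 were 2 other pathway genes in place of 0. The median was 0.53 over all 10 genes, NOD2 included, in place of 0.35 over 9. With at least 100 counts the genes numbered 213 and 127. TLR2, TLR4, TLR5 and NOD2 were then not compared, and DDX58 alone of the remaining genes was above 1, in place of 2 of 9. Of the other pathway genes, 8 were above 1 in place of 14. The number of all genes compared under these filters was not recorded, so no share of all genes stands beside these counts. At a threshold of 5 TPM, 5 of the 10 genes were expressed in sh-NC and 4 in MBD2-sh1, in place of 7 in each. The share of all genes at 5 TPM was not computed. The filters change how many genes are compared, and for the other changes the cause was not tested. Depth limits TLR2 and NOD2 most.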

Other observations

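The sensors of cytosolic DNA, which complement the RNA sensors, differed among themselves. IFI16, a nuclear and cytosolic DNA sensor, had 175 counts in MBD2-sh1 against 39 in sh-NC, with levels of 7.40 and 1.69 TPM and a log2FC of 2.14 (1.65 to 2.70). MB21D1 (cGAS), the DNA sensor that makes cyclic GMP-AMP, had 62 and 80 counts and a log2FC of -0.37 (-0.88 to 0.12). TMEM173 (STING), which receives that signal, had 31 and 24 counts and a log2FC of 0.35 (-0.46 to 1.19). The intervals of MB21D1 and TMEM173 hold 0, while that of IFI16 does not.

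AIM2, ZBP1 and NLRP3, which act in inflammasomes or sense nucleic acids, had 0 counts in both libraries. NLRP1 had 54 and 39 counts and a log2FC of 0.46 (-0.16 to 1.09). NLRC5, a regulator of MHC class I genes, had 116 and 68 counts and a log2FC of 0.76 (0.32 to 1.22), whereas NLRX1, a mitochondrial NOD-like protein, had 346 and 364 counts and a log2FC of -0.08 (-0.30 to 0.13).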
